A study of Mus musculus with 4 samples.

Results

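The 7 genes described here are the chemokine ligands Cxcl1, Cxcl2, Cxcl3, Cxcl5 and Cxcl16 and the receptors Cxcr2 and Cxcr6, chosen by name from gene lists of 31053 (tdT 1) to 32287 genes (the other libraries), all 7 of which were listed in every library. Cells came from popliteal lymphatic vessels (PLVs) and the adjacent superficial saphenous vein of mice on a C57BL/6J background, pooled from 3 mice per library, with PLVs stained by Evan's blue given into the hindpaws after a lethal dose of ketamine and xylazine, and vessels digested in Accumax. The libraries tdT 1 and tdT 2 held reporter-positive cells of male and female Cspg4-Cre;Ai9-tdTomato mice older than 8 months, in which Cre under the Cspg4 promoter marks mural cells. The WT library (wild-type C57BL6) and the TNF-Tg library came from male mice of 9 months by the labels, sorted for high forward or side scatter without a reporter, so cell shares reflect the sort as well as the vessel. The TNF-Tg mouse carries a human TNF transgene and develops inflammatory-erosive arthritis. Reads of human TNF do not count toward the mouse Tnf gene, so no gene in the tables checks the genotype. With 1 library each, genotype and library cannot be told apart.

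Chemokines are small secreted or membrane-bound proteins that guide leukocytes along a gradient through receptors coupled to G proteins. Cxcl1, Cxcl2, Cxcl3 and Cxcl5 carry the ELR motif and act on Cxcr2, the main receptor by which blood neutrophils leave vessels toward inflamed tissue, and stromal cells and macrophages make them within hours of a TNF or interleukin 1 signal. Cxcl16 differs from these ligands. It is made as a membrane protein that Adam10 and Adam17 can shed, and its receptor Cxcr6 is known on T cells and innate lymphoid cells rather than on neutrophils.

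In GENCODE vM21 (build GRCm38) the 4 Cxcr2 ligands are protein-coding neighbours on the plus strand of chromosome 5: Cxcl5 (ENSMUSG00000029371) at chr5:90759360-90761624, Cxcl3 (ENSMUSG00000029379) at chr5:90786103-90789600, Cxcl1 (ENSMUSG00000029380) at chr5:90891241-90893115 and Cxcl2 (ENSMUSG00000058427) at chr5:90903871-90905938. Only 10.8 kb lay between Cxcl1 and Cxcl2. Cxcr2 (ENSMUSG00000026180) lies at chr1:74153989-74161246, Cxcr6 (ENSMUSG00000048521) at chr9:123806475-123811760 and Cxcl16 (ENSMUSG00000018920) on the minus strand at chr11:70453983-70459984. The promoters of 3 neighbours are shown because Cxcl1 and Cxcl2, so close together, were read mainly in different classes. The RefSeq table of GRCm38.p6 held promoters (250 bases before to 50 after the start) of 5 members, Cxcl1, Cxcl2, Cxcl3, Cxcr2 and Cxcr6. The longest word that the 3 ligand promoters shared before the start was GGGAATTTCCC, which holds the letters of a κB-type motif. On both strands it occurred in 14 of all 32851 promoters of that length (0.0426%), among members in the 3 from which it was taken and not in Cxcr2 or Cxcr6. Over the whole window the longest shared word was CTCCAGACTCCAG, which lay after the start. The limit to bases before the start was chosen after both words were seen, and a match describes letters and is not a binding site. Each line runs 5′ to 3′ from 120 to 31 bases before the start on the plus strand, with the shared word in capitals, and spans chr5:90891125-90891214, chr5:90903779-90903868 and chr5:90785981-90786070 in the order shown.
Cxcl1: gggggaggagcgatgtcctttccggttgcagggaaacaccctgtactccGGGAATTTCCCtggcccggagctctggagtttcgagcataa
Cxcl2: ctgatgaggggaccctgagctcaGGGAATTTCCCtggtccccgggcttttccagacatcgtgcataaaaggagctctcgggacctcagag
Cxcl3: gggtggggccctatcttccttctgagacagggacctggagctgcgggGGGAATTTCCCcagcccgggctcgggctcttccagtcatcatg
The word began 71, 97 and 73 bases before the start, respectively.

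The 4 libraries held 454 to 5488 cells and 2357031 to 68773605 UMIs (deduplicated molecules), with medians of 4932.5 to 12660 UMIs per cell. Cells were gated by how many genes of marker lists had a UMI in them, and no member was among those markers. A level (CPM) is the number of UMIs of a gene per 1000000 UMIs of all cells of that class and library, and intervals and floors are 95% intervals that cover counting error only. The stromal classes are called LMC-type and VSMC-type after the lymphatic muscle and vascular smooth muscle cells of the study, although their 6 contractile and pericyte markers summed to only 39.7 (tdT 2) to 64.7 CPM (tdT 1) in LMC-type cells. tdT 1 stood apart from the other libraries: 516 of its 1504 cells had over 10% mitochondrial UMIs, against 1 of 454 in tdT 2, and it alone was sorted through an 85 µm nozzle and counted with Cell Ranger 3.1.0. Pairs of libraries shared 0 to 5 cell barcodes.

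Cxcl1 (KC in the mouse, a rapid Cxcr2 ligand) was mainly a stromal transcript. In LMC-type cells it stood at 666 CPM in tdT 1, 14.4 in tdT 2, 52.2 in WT and 120 in TNF-Tg, read in 55.4%, 4.44%, 18.1% and 25.7% of cells. In VSMC-type cells it was 505 CPM in tdT 1, 38.4 in tdT 2, 19.6 in WT and 45.2 in TNF-Tg. tdT 1 was the highest library in both classes, and the other 3 libraries lay within a narrower range. The transcript was concentrated in few cells: the tenth of LMC-type cells with the most Cxcl1 held 88.3% of its UMIs in WT and 79.4% in TNF-Tg, with up to 77 and 47 UMIs in a cell. Resident macrophages, the Lyve1 and Cd209f population of vessel walls, held 13.3 CPM in WT and 42.05 in TNF-Tg, and neutrophils 1.52 and 2.74 CPM. In tdT 1 neutrophils held 153 CPM (5 UMIs in 9 cells), the dendritic and Ear2 classes together 152 and all stromal classes together 596. The dendritic and Ear2 classes of WT held 10.7 CPM. Cxcl1 in WT resident macrophages reached 25.5% of its LMC-type level and in TNF-Tg 35.1%, beside 0.703% and 1.03% for the 9 LMC-type markers. The part of stromal RNA in these levels was not tested.

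**Figure D1:**
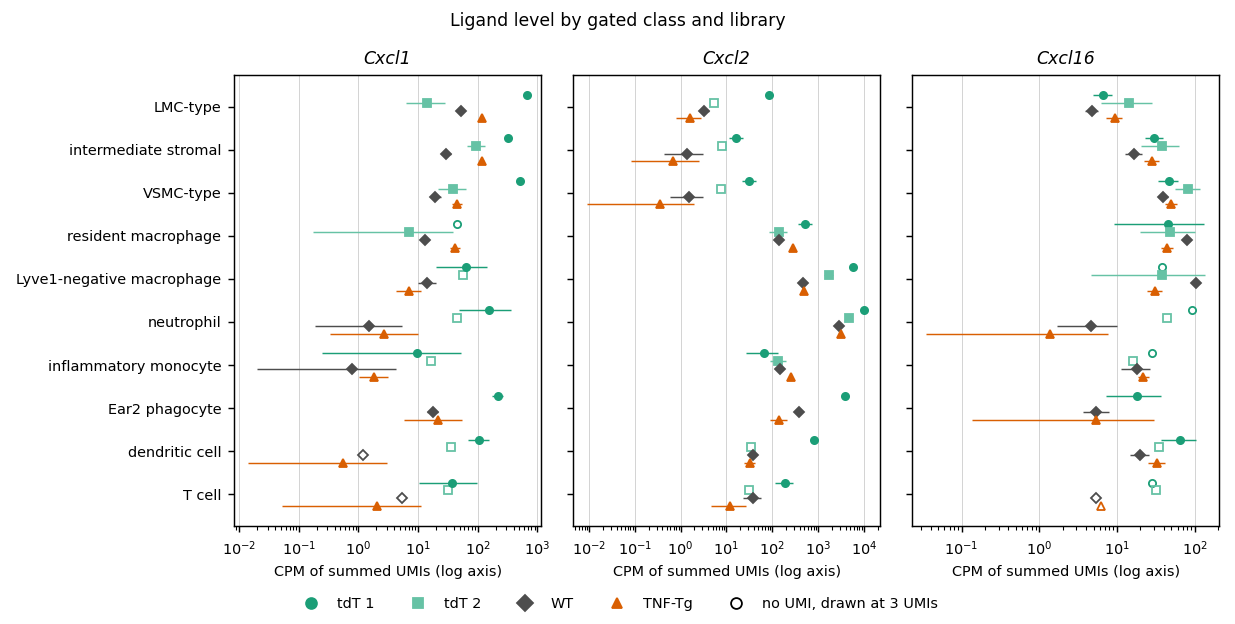
CPM of summed UMIs (log axis) of Cxcl1, Cxcl2 and Cxcl16 in 10 gated classes, 1 point per library with its 95% counting interval, for classes of at least 8 cells; open symbols mark classes without a UMI, drawn at the level of 3 UMIs. Cxcl1 was highest in the stromal rows, but in TNF-Tg resident macrophages (42.05 CPM) came close to VSMC-type cells (45.2 CPM). Cxcl2 was highest in neutrophils (2925 to 10282 CPM). Cxcl16 lay between 39.6 and 81.9 CPM in VSMC-type cells and between 44.2 and 80.5 CPM in resident macrophages.

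Which cell classes held each ligand was tested over class-by-library sums (edgeR quasi-likelihood test on 46 sums of 12043 genes, library as a block, Benjamini-Hochberg adjustment, threshold 0.01). LMC-type and VSMC-type cells together held more Cxcl1 than the Lyve1 resident and Lyve1-negative macrophages, by 2.02 ± 0.40 on the log2 scale (SE, adjusted p = 3.13e-05), whereas the difference for Cxcl2 was −6.88 ± 0.44 (SE, adjusted p = 1.54e-17). Of the 7 members 5 passed the filter on low counts. Of these, 1 was higher in stroma (28.1% of all genes were) and 2 were lower (21.9% of all genes), so calls in this contrast are common. Between the 2 stromal classes Cxcl1 did not pass the test: LMC-type minus VSMC-type was 0.66 (95% interval −0.19 to 1.51, adjusted p = 0.356). Neutrophils against macrophages did not pass either, at −2.02 (95% interval −4.45 to 0.41, adjusted p = 0.161).

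The replicates tdT 1 and tdT 2 differed in Cxcl1 in every stromal class. The mean over the tdT libraries in LMC-type cells was 340 ± 461 CPM (SD, n = 2), a 46.1-fold difference (95% counting interval 23.4 to 107) on 5493 and 8 UMIs. In VSMC-type cells it was 13.2-fold (7.90 to 23.7) and in the stromal cells between both classes 3.49-fold (2.48 to 5.06). Cxcl2 in LMC-type cells was at 85.4 CPM in tdT 1 and had no UMI in tdT 2, at least 15.8-fold lower against a floor of 3 UMIs. Of the 3 members with at least 50 UMIs in LMC-type cells, 2 were at least 2-fold higher in tdT 1 (10.6% of all genes were) and Cxcl16 was lower at 6.54 against 14.4 CPM (5.41% of all genes). That Cxcl16 ratio of 0.454 rested on 54 and 8 UMIs (95% counting interval 0.215 to 1.10). It no longer passed 2-fold after thinning (0.75-fold). Cxcl1 was the 1 of 2 members higher in VSMC-type cells (8.69% of all genes higher, 5.16% lower) and in the stromal cells between the classes (9.86% and 4.85%). Cxcl2 in resident macrophages was 3.76-fold higher as the 1 member counted (11.2% and 21.8%), and Cxcr6 in T cells was lower in tdT 1 at 0.323-fold (14.0% and 19.6%).

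A list of 14 genes that respond to handling (Fos, Jun, Egr1, Atf3 and others, immediate-early and heat-shock genes) was, like Cxcl1, higher in stromal classes of tdT 1 than of tdT 2. It summed to 20431 CPM in LMC-type cells of tdT 1, 5974 in tdT 2, 4498 in WT and 3729 in TNF-Tg. Outside tdT 1 the order was opposite to that of Cxcl1, at 14.4 CPM in tdT 2, 52.2 in WT and 120 in TNF-Tg. In resident macrophages the list stood at 42397 CPM in tdT 1 and 13411 in tdT 2, with 0 and 1 UMIs of Cxcl1 in 10 and 34 cells. In LMC-type cells 12 of the 14 were at least 2-fold higher in tdT 1 than in tdT 2 and 0 lower, with a median log2 ratio of 1.93 beside 0.01 over all genes. Sequencer, nozzle, pipeline and replicate change together with tdT 1, so their parts cannot be told apart. In TNF-Tg over WT, where Cxcl1 was higher in LMC-type cells, 1 of 14 was at least 2-fold higher there, 0 lower, and the median was −0.22. In Lyve1-negative macrophages, where Cxcl1 was lower in TNF-Tg, 6 of 12 were at least 2-fold lower (7.54% of all genes) and 1 higher (5.60%, median −1.02). The median was also negative in macrophage classes where Cxcl1 was higher. In resident macrophages (Cxcl1 3.15-fold) 0 of 14 were lower (4.53%) and 1 higher (3.82%, median −0.46). In macrophages with an intermediate number of resident markers (Cxcl1 4.85-fold on 14 and 20 UMIs) 6 of 13 were lower (11.7%) and 0 higher (8.43%, median −0.92).

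**Figure D2:**
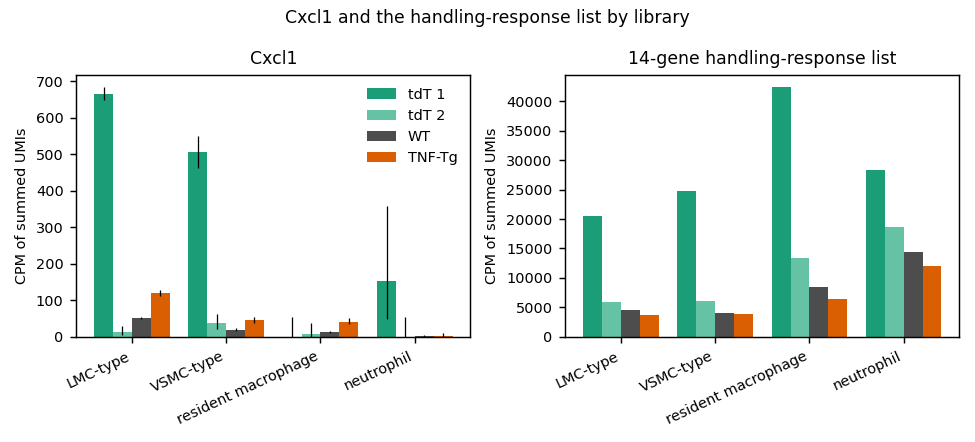
Bars give CPM of summed UMIs of Cxcl1 (left, with 95% counting intervals) and of the 14-gene handling-response list (right) in 4 classes, 1 bar per library, from 0. In LMC-type and VSMC-type cells the tdT 1 bars (666 and 505 CPM of Cxcl1) exceed those of the other 3 libraries in both panels.

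TNF-Tg over WT was compared by class, with 1 library of each and therefore no test. Cxcl1 was higher in TNF-Tg in all 3 stromal classes. In LMC-type cells the ratio of CPM was 2.30-fold (95% counting interval 2.10 to 2.51, 914 and 1173 UMIs), in VSMC-type cells 2.31-fold (1.75 to 3.05) and in the stromal cells between them 3.98-fold (3.20 to 4.98; 117 against 29.4 CPM). Among members with at least 50 UMIs, 1 of 3 in LMC-type cells was at least 2-fold higher (3.76% of all genes) and 1 lower (4.45%), the latter being Cxcl2 with 12 and 73 UMIs. Cxcl1 in LMC-type cells was 1.75-fold after thinning and so no longer passed 2-fold. In VSMC-type cells 1 of 2 was higher (3.55% of all genes) and 0 lower (16.4%), and the same held in the stromal cells between the classes (3.59% and 6.85%). The share of LMC-type cells with Cxcl1, after thinning every cell to 3000 UMIs, was 13.3% in TNF-Tg and 8.68% in WT. The tdT replicates differed by more than these ratios in LMC-type and VSMC-type cells. In the stromal cells between them they differed by 3.49-fold against 3.98-fold, with overlapping counting intervals. That order turned after thinning (3.97-fold between the tdT replicates against 3.05-fold) and as a mean over cells (4.06-fold against 3.28-fold).

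Cxcl1 also differed in the macrophages. Resident macrophages held 3.15-fold more in TNF-Tg (2.49 to 3.98) while Lyve1-negative macrophages held 7.09 CPM in TNF-Tg and 14.4 in WT (18 and 32 UMIs). The gate of the latter allowed a UMI of up to 3 of the 8 resident markers, Lyve1 included. Cxcl1 in Lyve1-negative cells was read in 2.94% and 3.05% of cells, that is in 5 and 6 cells. The handling list stood in the same class at 9451 CPM in WT and 4634 in TNF-Tg, and its part in the Cxcl1 difference was not tested. In resident macrophages 2 of 3 members (Cxcl1 and Cxcl2) were at least 2-fold higher (3.82% of all genes) and 0 lower (4.53%). In Lyve1-negative macrophages 0 of 3 were higher (5.60%) and 2 lower (7.54%), namely Cxcl1 and Cxcl16. Cxcl2 in resident macrophages no longer passed 2-fold after thinning (1.78-fold), nor did Cxcl1 in Lyve1-negative macrophages after thinning (0.560-fold) or as a mean over cells (0.698-fold). Macrophages with an intermediate number of resident markers (29 TNF-Tg cells) had Cxcl2 2.26-fold higher (8.43% of all genes higher) and Cxcl16 0.292-fold (11.7% lower), the latter 0.548-fold after thinning.

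**Figure D3:**
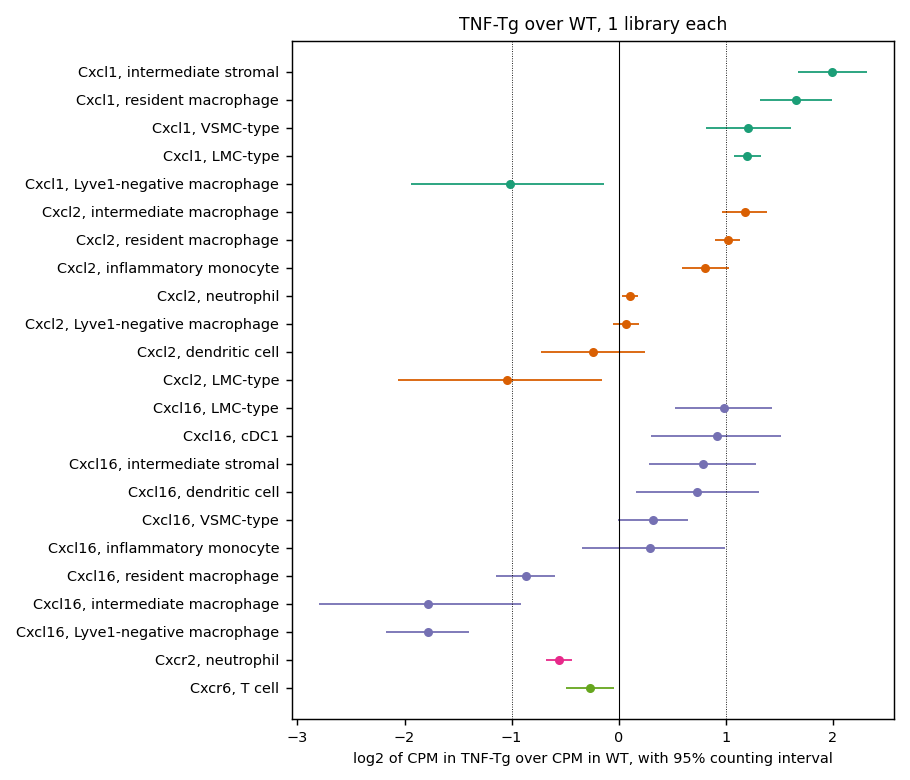
Each point is the log2 ratio of CPM in the TNF-Tg over the WT library for a member in a class with at least 20 cells in each and at least 50 UMIs over both, with its 95% counting interval; dotted lines mark 2-fold. Cxcl1 lies right of 0 in 4 of 5 classes, and Cxcl16 runs from 0.98 in LMC-type cells to −1.78 in Lyve1-negative macrophages.

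Cxcl5 (LIX, a Cxcr2 ligand of epithelium and stroma) was close to absent outside TNF-Tg. It had 1 UMI in tdT 1, 0 in tdT 2 and 2 in WT against 71 UMIs in 15 TNF-Tg cells. Of these, 5 LMC-type cells held 38 UMIs, 3 stromal cells between the classes 8, 5 resident macrophages 12 and 2 cells with stromal and leukocyte markers 13. A single LMC-type cell held 18 of the 38. LMC-type cells stood at 4.98 CPM in TNF-Tg and at 0 UMIs in 22472921 of WT, at least 37.3-fold higher against a floor of 3 UMIs, and the log2 bound of 5.22 became 4.30 without the top cell, an alternative chosen after seeing the data, and 3.61 with a stricter gate. Resident macrophages held 4.28 CPM in TNF-Tg and 0.133 in WT, a ratio of 32.2 on 12 and 2 UMIs (95% counting interval 7.18 to 296). Among the 5 LMC-type cells with Cxcl5, 4 also held Cxcl1, and among those without it the share with Cxcl1 was 25.2%. The cells with Cxcl5 were deeper (medians of 24428 against 12440 UMIs), and these shares are not matched for depth. Cxcl5 did not pass the filter of the test.

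Cxcl2 (MIP-2, the myeloid Cxcr2 ligand) was highest in neutrophils, the cells that also carry its receptor. Neutrophils held 10282 CPM in tdT 1 (9 cells), 4684 in tdT 2, 2925 in WT and 3150 in TNF-Tg, and 71.7% to 100% of them had a UMI. Lyve1-negative macrophages held 5698 CPM in tdT 1 (8 cells), 1708 in tdT 2, 483 in WT and 506 in TNF-Tg. Resident macrophages held 523, 139, 143 and 290 CPM in the same order. Neutrophils were above the Lyve1-negative macrophages, and these above the resident ones, in each of the 4 libraries. Cells of the Ear2 class (phagocytes with Ear2 and Retnla) held 392 CPM in WT, inflammatory monocytes 150 in WT and 263 in TNF-Tg, and VSMC-type cells 1.49 and 0.353.

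The order of Cxcl2 passed the test in part. Neutrophils exceeded the macrophage classes by 3.98 ± 0.40 on the log2 scale (SE, edgeR quasi-likelihood test, adjusted p = 5.73e-11), and 2 of 5 members tested were higher in neutrophils (18.5% of all genes) and 1 lower (21.8%). The difference of resident minus Lyve1-negative macrophages was −2.35 ± 0.49 (SE, adjusted p = 6.38e-04), the only member of 5 called in that contrast (2.57% of all genes were lower, 4.09% higher). That call was lost without tdT 2 (−1.80, adjusted p = 0.0246), with a stricter gate (−1.43, adjusted p = 0.0883), with Seurat clusters (−1.59, adjusted p = 0.0428) and without the library block (−1.74, adjusted p = 0.538).

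In TNF-Tg over WT, Cxcl2 differed little in neutrophils and more in resident macrophages. The ratio in neutrophils was 1.08-fold (1.02 to 1.13) and in Lyve1-negative macrophages 1.05-fold (0.965 to 1.14), and 0 of 2 members in neutrophils passed 2-fold either way (4.37% of all genes higher, 7.78% lower). In resident macrophages it was 2.02-fold (1.86 to 2.19), with a UMI in 42.3% against 27.7% of cells, and in inflammatory monocytes 1.75-fold (1.51 to 2.04), where 0 of 2 members passed 2-fold (3.54% of all genes higher, 4.41% lower). The tdT replicates differed by more in resident macrophages, at 3.76-fold (10 and 34 cells). The 10 neutrophil markers summed in resident macrophages to 301 CPM for the WT library and 1108 CPM for TNF-Tg. That is 0.119% and 0.397% of the level in neutrophils of the same libraries, beside 4.90% and 9.20% for Cxcl2. The part of neutrophil RNA in the Cxcl2 difference was not tested.

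Cxcl3, the remaining neighbour, had 2, 0, 28 and 10 UMIs in tdT 1, tdT 2, WT and TNF-Tg. Neutrophils held 15 of the 28 in WT and 2 of the 10 in TNF-Tg, and every neutrophil with Cxcl3 (8 in WT, 2 in TNF-Tg) also held Cxcl2. Of the 31-base words in its transcripts 4.56% also occur in those of Cxcl2, so reads of the pair may be hard to place, and Cxcl3 levels are uncertain. Among Cxcl2 words 7.59% occur in Cxcl3, and transcripts of the other 5 members shared none.

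Cxcl16 was read in stromal and macrophage classes. VSMC-type cells held 46.0 CPM in tdT 1, 81.9 in tdT 2, 39.6 in WT and 49.4 in TNF-Tg, and LMC-type cells 6.54, 14.4, 4.72 and 9.31. The groups of 4 did not overlap, and the share of all genes without overlap was not counted. LMC-type minus VSMC-type was −2.94 ± 0.41 on the log2 scale (SE, edgeR quasi-likelihood test, adjusted p = 6.15e-07), with 1 of 5 members called lower (5.12% of all genes) and 0 higher (4.27%). Cxcl16 was the member that separated the stromal classes in every setting tried. In LMC-type cells Cxcl16 stood at 11.9% (WT) and 18.8% (TNF-Tg) of its VSMC-type level, beside 11.9% and 15.97% for the 9 VSMC-type markers. These markers also separate the stromal classes in the gate, so their share is set in part by it and is no yardstick for Cxcl16. Their part in it was not tested. Resident macrophages held 44.8, 48.6, 80.5 and 44.2 CPM and Lyve1-negative macrophages 0, 37.9, 104 and 30.3, with 3 and 0 UMIs in tdT 1. Cross-presenting cDC1 cells held 53.2 CPM in WT and 100.4 in TNF-Tg.

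The stromal classes together were below the macrophages in Cxcl16, at −1.60 ± 0.31 (SE, adjusted p = 2.33e-05), but without the WT library the difference was −0.47 (adjusted p = 0.156). The 2 macrophage classes did not pass the test (−0.18, 95% interval −1.03 to 0.68, adjusted p = 0.877). Neutrophils were lower than macrophages, at −3.39 ± 0.76 (SE, adjusted p = 3.08e-04), and T cells had no Cxcl16 UMI in any library. TNF-Tg over WT was 1.97-fold in LMC-type cells (1.44 to 2.69), 1.25-fold in VSMC-type cells (0.996 to 1.56), 1.72-fold in the stromal cells between them (1.22 to 2.44; 0.964-fold after thinning), 0.549-fold in resident (0.452 to 0.661) and 0.291-fold in Lyve1-negative macrophages (0.222 to 0.379). In LMC-type cells tdT 1 over tdT 2 was 0.454-fold (95% counting interval 0.215 to 1.10). Dendritic cells (Cd209a class) held 1.66-fold more in TNF-Tg than in WT (1.12 to 2.47) and cDC1 1.89-fold more (1.23 to 2.86), neither past 2-fold (4.14% higher and 6.06% lower of all genes in the former, 6.13% and 5.45% in the latter). The cDC1 ratio rested on 20 TNF-Tg cells and was 1.49-fold after thinning. The share of cDC1 cells with Cxcl16 then went the other way, at 15.0% in TNF-Tg and 23.4% in WT. The summed handling list was at 9451 CPM in WT and 4634 in TNF-Tg Lyve1-negative macrophages, and its part in the Cxcl16 difference was not tested.

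Cxcr2, the receptor of the neighbouring ligands, marked neutrophils. They held 979 CPM in tdT 1, 916 in tdT 2, 1509 in WT and 1025 in TNF-Tg, and 79.3% (tdT 2) to 100% (tdT 1) had a UMI at median depths of 2281 to 3682 UMIs. Against macrophages the log2 difference was 10.58 ± 0.38 (SE, edgeR quasi-likelihood test, adjusted p = 4.68e-23). The next class was the basophils, with 221 CPM in 60 cells of TNF-Tg (30 with a UMI) and 462 CPM in 6 cells of WT. Their level in TNF-Tg lay outside the neutrophils' counting interval, and the 10 neutrophil markers summed in them to 0.0113% of their neutrophil level, beside 21.6% for Cxcr2. WT mast cells held 134 CPM (17 UMIs in 35 cells) and patrolling monocytes of TNF-Tg 13.2 CPM, from 7 of 241 cells. Resident macrophages held 0.114% (WT) and 0.487% (TNF-Tg) of the neutrophil level, beside 0.119% and 0.397% for the neutrophil markers, and the 14 UMIs in TNF-Tg lay in 5 cells. The part of neutrophil RNA in the Cxcr2 of other classes was not tested. LMC-type and VSMC-type cells were at 0.262 to 0.970 CPM wherever they had a UMI, so stroma differed from macrophages by −1.70 without passing the test (adjusted p = 0.0321).

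**Figure D4:**
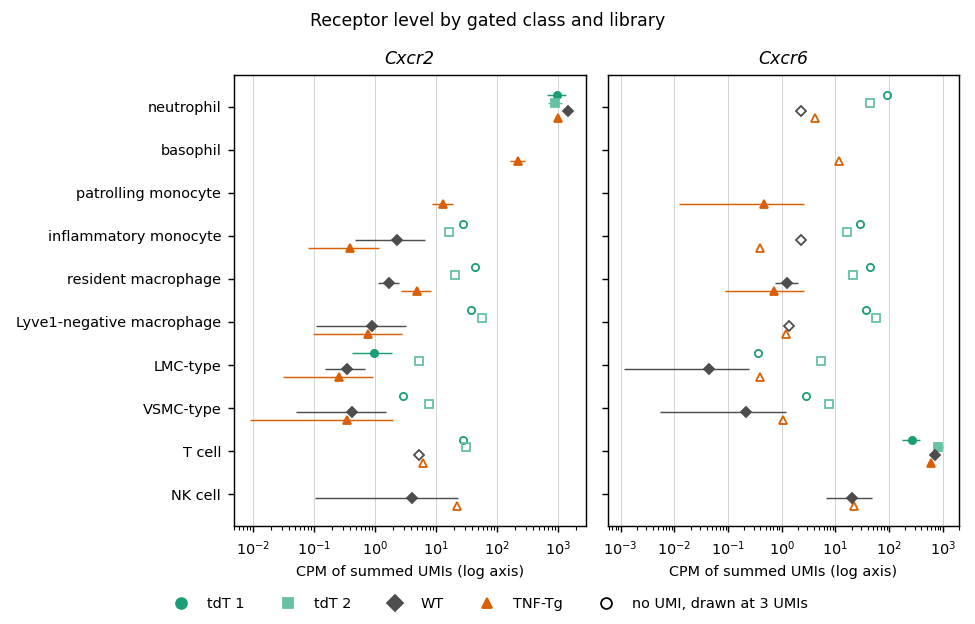
CPM of summed UMIs (log axis) of Cxcr2 and Cxcr6 in 10 gated classes, 1 point per library with its 95% counting interval, for classes of at least 8 cells; open symbols mark no UMI, drawn at 3 UMIs. Cxcr2 peaks in neutrophils (916 to 1509 CPM) with basophils next, and Cxcr6 in T cells (265 to 820 CPM).

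Neutrophils of TNF-Tg held 0.679-fold the Cxcr2 of WT neutrophils (95% counting interval 0.624 to 0.739), with a UMI in 89.5% and 96.4% of cells, or 87.2% and 95.7% after thinning to 3000 UMIs, which left out 102 of 219 TNF-Tg and 98 of 333 WT cells. Cxcr1, the related receptor gene, stood at 13.7 CPM in TNF-Tg and 83.6 in WT neutrophils (10 and 110 UMIs). The tdT neutrophils (9 cells in tdT 1 and 29 in tdT 2) were at levels close to those of TNF-Tg, and WT was the highest of the 4 libraries. The tdT libraries also differed from WT in sort and in the sex of the mice, and the cause was not tested. Receptor and ligand were read in the same cells: 239 of 333 WT and 140 of 219 TNF-Tg neutrophils had a UMI of Cxcr2 and of Cxcl2. The share with Cxcl2 was 74.5% among WT neutrophils with Cxcr2 and 75.0% among those without it, and in TNF-Tg 71.4% and 73.9%.

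Cxcr6, the receptor of Cxcl16, was highest in gated T cells but not confined to them. These cells held 77.2% of its UMIs in WT and 75.2% in TNF-Tg, and leukocytes that passed no gate held 14.1% and 16.7%. T cells held 265 CPM in tdT 1, 820 in tdT 2, 711 in WT and 590 in TNF-Tg, from 13 to 66 cells. They exceeded macrophages by 11.23 ± 0.34 on the log2 scale (SE, edgeR quasi-likelihood test, adjusted p = 1.98e-22). Lyve1-negative macrophages had no Cxcr6 UMI in any library, so neither the size of this difference nor its SE is well determined. In this contrast 1 of 5 members was higher (12.6% of all genes) and 2 were lower (14.9%), Cxcl2 and Cxcl16. With DESeq2 the Cxcr6 difference was 10.17 with adjusted p = 0.212. NK cells held 20.5 CPM in WT and no UMI in TNF-Tg. Resident macrophages were at 1.26 CPM in WT and 0.713 in TNF-Tg. The WT level came from 19 UMIs in 2 of 1173 cells, 18 of them in a single cell. The TNF-Tg level came from 2 UMIs in 1 cell. TNF-Tg over WT in T cells was 0.829-fold (0.710 to 0.967), and 0 of 1 member passed 2-fold (1.25% of all genes higher, 4.98% lower).

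In the Seurat clusters of the WT and TNF-Tg libraries, the T cell cluster led by Trdc, Cd3g and Trdv4 (γδ T cell receptor genes) held 1281 and 1341 CPM of Cxcr6, read in 96.8% and 100% of 31 and 34 cells. The cluster led by Ccl5, Gzma and Nkg7, whose leading genes also include the NK cell gene Ncr1, held 56.96 and 19.9 CPM. Of all gated NK cells 56 lay in the T-named clusters and 2 in unnamed ones, so this is not a comparison within T cells. An unnamed cluster led by Gata3, Tnfrsf18 and Ctla2a held 277 CPM in 25 WT cells and 470 in 30 TNF-Tg cells, with a UMI in 84.0% and 83.3%. Clusters were built on 1984 variable genes, with the CXC chemokines and their receptors left out. These values describe the clusters and were not tested.

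The number of cells in a class weighed on which class supplied most UMIs. Stromal classes held 37.8% of WT cells but 75.7% of its Cxcl1 UMIs, and 30.9% of TNF-Tg cells but 82.6%. Cxcl2 in WT was divided between macrophages (36.5%), neutrophils (35.1%) and the dendritic and Ear2 classes (19.9%). In TNF-Tg, monocytes held 30.5% of Cxcl2 against 1.78% in WT, with 875 and 107 gated monocytes. Cxcl16 moved from macrophages (72.1% in WT) to a spread of stroma (28.0%), monocytes (21.6%) and macrophages (20.2%) in TNF-Tg. Neutrophils held 88.1% and 81.0% of Cxcr2.

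**Figure D5:**
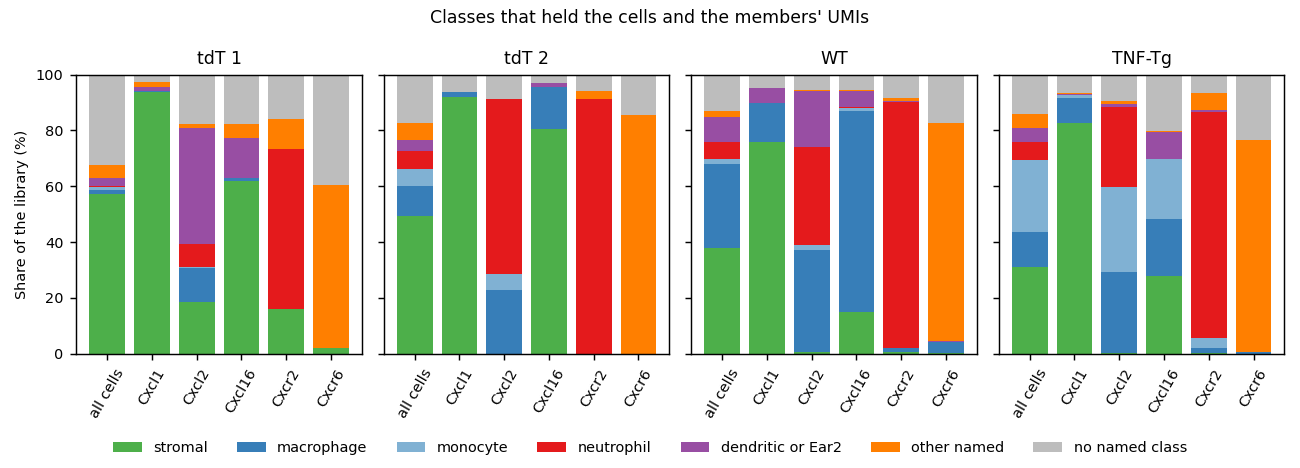
Stacked bars from 0 to 100% give, for each library, the classes of its cells and of the UMIs of 5 members. The stromal block covers 75.7% (WT) to 93.9% (tdT 1) of Cxcl1 in every library, and the neutrophil block 57.1% (tdT 1) to 91.2% (tdT 2) of Cxcr2.

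Of a list of 34 other genes of neutrophil recruitment, 33 were tested. Against macrophages, neutrophils were higher in 18 and lower in 1, with a median log2 difference of 1.98 beside −0.48 over all genes. Among the largest were Cxcr1 (10.80) and Il1b, the inflammasome cytokine (9.06), and 1 of the 18, Csf3r, was also a marker of the gate. Stromal cells were higher in 6 and lower in 16, led by the complement receptor C5ar1 (−8.83), the platelet chemokine Pf4 (−8.66) and the integrin Itgam (−8.17). Over all genes 18.5% were higher and 21.8% lower in that contrast, 28.1% and 21.9% in stroma. LMC-type against VSMC-type cells differed in 3 (4.27% of all genes higher and 5.12% lower, a share close to that of the list), the scavenger receptors Ackr3 (2.78) and Ackr1 (0.91) and the chemokine Cxcl12 (−2.07). Resident against Lyve1-negative macrophages differed in 4 (4.09% and 2.57% of all genes), with Ltb4r1 (−4.40), Cxcr3 (3.102) and Cxcl12 (2.97) first. T cells against macrophages were higher in 7 and lower in 8 (12.6% and 14.9% of all genes), led by Pf4 (−8.50), C5ar1 (−8.43) and Itgam (−6.09).

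In TNF-Tg over WT, 3 of 17 genes of that list with at least 50 UMIs in LMC-type cells were at least 2-fold higher (3.76% of all genes) and 0 lower (4.45%), with a median log2 ratio of 0.23 beside −0.03 over all genes. They were Il6 (17.6 against 2.45 CPM), Cxcl12 (689 against 123) and the adhesion gene Icam1 (34.9 against 11.9). Il6 was read in 27.9% of TNF-Tg LMC-type cells with Cxcl1 and in 3.70% of those without it, and in WT in 4.82% and 1.51%. The cells with Cxcl1 were deeper (medians of 16569.5 against 11659 UMIs in TNF-Tg and 18201 against 15681 in WT), and these shares are not matched for depth. In neutrophils 6 of 21 were higher (4.37% of all genes) and 2 lower (7.78%), among them Nfkbia, a feedback inhibitor of NF-κB (2300 against 417 CPM). In VSMC-type cells 1 of 16 was higher (3.55% of all genes) and 3 lower (16.4%). The stromal cells between the classes had 2 higher and 0 lower of 16 (3.59% and 6.85%). Lyve1-negative macrophages had 1 and 4 of 17 (5.60% and 7.54%, median −0.37), resident ones 2 and 2 of 21 (3.82% and 4.53%, median 0.02) and intermediate ones 0 and 3 of 15 (8.43% and 11.7%). Dendritic cells had 2 and 5 of 15 (4.14% and 6.06%, median −0.68), and inflammatory monocytes 5 and 1 of 21 (3.54% and 4.41%, median 0.05).

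The genes most like each member over 38 class-by-library sums of at least 20 cells (Pearson correlation of log2(CPM + 1) among 7126 genes; sums of a library share its depth and preparation) were Enpp2 (0.879), Arhgef12 (0.876) and Cavin1 (0.874) for Cxcl1. For Cxcl2 they were Ccr1 (0.891), Cd300lb (0.882) and Lilrb4a (0.872), and for Cxcl16 Deptor (0.795), Spire1 (0.792) and Ptov1 (0.791). For Cxcr2 they were Rab44 (0.923), Acod1 (0.910) and Gm20406 (0.901), and for Cxcr6 Trac (0.956), Trgv2 (0.942) and Tcrg-C1 (0.942). The neighbours Cxcl1 and Cxcl2 had a coefficient of −0.26. Cxcl3 and Cxcl5 stayed under 50 CPM in every sum.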

How the data were processed

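The authors deposited gene-by-cell matrices of UMI counts (raw counts from Cell Ranger 3.1.0 for tdT 1 and 6.0.1 for the other libraries, mm10 build, and Seurat 4.0.3 in their own analysis). No normalized values were used. Genes were those of the deposited lists, and 0 columns were unassigned. The members and gene lists were chosen with earlier results of these data known.

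Cells were assigned to classes by the number of listed markers with a UMI: stromal cells needed 5 of 7 stromal markers, leukocytes 4 of 7, neutrophils 5 of 10, resident macrophages 6 of 8, macrophages 7 of 10 and T cells 4 of 8. LMC-type and VSMC-type cells differed by a log2 ratio of list UMIs beyond 1. These thresholds were set after marker detection was viewed. Gating left 487, 78, 713 and 481 cells of tdT 1, tdT 2, WT and TNF-Tg in no named class, and 14.2% to 26.8% of stromal cells lay near the cut. Scrublet predicted 0 to 137 doublets per library, which were kept. In the 6 classes of the test contrasts, 86.2% to 98.8% of gated cells lay in clusters of the same name. Agreement was looser for gated inflammatory monocytes. Of these, 529 lay in their own cluster, 156 in the Lyve1-negative macrophage cluster and 71 in the dendritic cell cluster.

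UMI counts were summed per class and library where there were at least 10 cells, and tested with edgeR 4.0.16 (limma 3.58.1, R 4.3.3) by the quasi-likelihood test with TMM, filterByExpr and a library block. Adjusted p used Benjamini-Hochberg over all genes. The SE of a log2 difference was taken as its absolute value over the square root of the F statistic. On simulated data the test and the intervals were checked. The counts for the intervals were drawn from a Poisson distribution, so that check does not cover UMIs concentrated in few cells. Mice were pooled and each library was counted once. The block takes out differences between libraries that all classes share. The p-values therefore rest on the spread left between sums after class and library, estimated over all classes together. They do not measure the spread between mice. Sums of a library share its preparation. TNF-Tg and WT, and tdT 1 and tdT 2, were compared by ratios with exact conditional binomial intervals, shares of cells by exact binomial intervals, and a count of 0 by a floor of 3 UMIs. In these ratios a gene was counted with at least 50 UMIs over both libraries and as called past 2-fold. Alternatives were DESeq2 1.42.0, no filter, no block, each library left out, a stricter gate by 1 marker, Seurat 5.3.0 clusters, exclusion of doublets or of cells over 10% mitochondrial UMIs or under 500 genes, thinning to 3000 UMIs and the mean over cells. Python 3.11.15, scanpy 1.11.5 and scipy 1.17.1 were used.

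Every member was described. Of the 34 pathway genes, counts were given with the 3 largest changes past the test (1 of these is not reported here), and of the 14 handling genes the summed level. The genes most like a member were the 3 of highest Pearson correlation of log2(CPM + 1) among genes with at least 50 CPM in a sum. Values named outside these rules (Il6, Icam1, Cxcl12, Nfkbia and Cxcr1 in TNF-Tg over WT, and cluster genes) were chosen after their values were seen.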

Additional observations from a re-analysis of the deposited data

Results flagged for a closer look

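The direction of TNF-Tg over WT differed between classes for 3 members, each on 1 library per genotype, and none of these differences was tested. The log2 ratio of Cxcl1 was 1.99 in the stromal cells between LMC-type and VSMC-type and −1.02 in Lyve1-negative macrophages, the latter on 18 and 32 UMIs. Cxcl2 stood at 1.17 in macrophages with an intermediate number of resident markers (29 TNF-Tg cells) and at −1.05 in LMC-type cells, on 12 and 73 UMIs. For Cxcl16 the ratio was 0.98 in LMC-type cells and −1.78 in Lyve1-negative macrophages. The tdT replicates (tdT 1 over tdT 2) differed by 3.49-fold for Cxcl1 in the stromal cells between the classes. In LMC-type cells they differed by at least 15.8-fold for Cxcl2 and by 0.454-fold for Cxcl16. The macrophage classes named here had too few tdT cells for this comparison.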

How the results depend on the processing

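Without the library block, which treats sums of a library as unpaired, Cxcl2 in resident against Lyve1-negative macrophages was −1.74 (adjusted p = 0.538 by edgeR), Cxcl2 in T cells against macrophages −3.27 (adjusted p = 0.0313), and genes past the threshold numbered 509 in place of 1131 for LMC-type against VSMC-type and 280 in place of 801 for resident against Lyve1-negative macrophages. No other call on a member changed without the block.

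Leaving out each library in turn gave −2.41 to −0.47 for Cxcl16 in stroma against macrophages (−0.47 without WT), and for resident against Lyve1-negative macrophages −0.54 to 1.88 for Cxcl1 (−0.54 without TNF-Tg), −0.50 to 0.42 for Cxcl16 (0.42 without WT) and −3.09 to −1.80 for Cxcl2. Genes past the threshold then ranged from 2633 to 5063 for neutrophils, 661 to 1076 for LMC-type against VSMC-type, 380 to 788 for resident against Lyve1-negative macrophages and 2000 to 3134 for T cells, with fewest without WT in each. With DESeq2 the LMC-type count was 727 and Cxcr6 in T cells 10.17 (adjusted p = 0.212). The Cxcl2 difference between the macrophage classes was −1.43 with a stricter gate and −1.59 with Seurat clusters, which called 1203 genes.

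For TNF-Tg over WT, the log2 ratio of Cxcl1 in LMC-type cells was 0.95 with a stricter gate, 1.04 with clusters, 0.80 after thinning and 1.02 as a mean over cells, so 2-fold was not reached with the stricter gate or after thinning. Cxcl2 in neutrophils became −0.0032 with clusters and −0.0065 after thinning, and in resident macrophages 0.84 after thinning. Cxcr2 in neutrophils was −0.69 and −0.70. The causes were not tested. Over all settings 348 values were counted as unchanged, 28 moved, 2 changed sign, 7 gained and 7 lost a call. Unchanged test results kept sign and call, whatever their size. Unchanged ratios stayed within the main counting interval, or close to the main value where it was a bound. A sign change of a ratio was counted only where the main ratio was past 2-fold, which leaves out Cxcl2 in neutrophils.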

Other observations

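Cxcr2 was also read in WT mast cells at 134 CPM (17 UMIs), where the 10 neutrophil markers summed to 3.53% of their neutrophil level and Cxcr2 stood at 8.89%. Among 60 TNF-Tg basophils 30 held Cxcr2 and 10 held Cxcl2, with 3 holding both. In resident macrophages Cxcl2 was read in 56.9% of WT cells with Cxcl1 and 26.0% of those without it, and in TNF-Tg in 68.8% and 38.1%. These shares are not matched for depth.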
